A study of Mus musculus with 6 samples.

Results

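The genes described here are the matrix metalloproteases (MMPs), the ADAMTS proteases, the ADAMTS-like proteins and the tissue inhibitors of metalloproteases (TIMPs), the enzymes that cut the extracellular matrix together with their relatives and their inhibitors. They were taken by gene symbol from the protein-coding rows of the count table, as the symbols Mmp, Adamts, Adamtsl and Timp followed by a number and, for Mmp genes, an optional letter a or b. This gave 50 genes of 54532 in the table, namely 22 Mmp, 19 Adamts, 5 Adamtsl and 4 Timp genes. Mmp1a is annotated as a polymorphic pseudogene and therefore was not among them. RNA was sequenced from cardiosphere-derived cells (CDCs), cells that grow out of cultured heart tissue, taken from the ventricle of adult C57BL/6 mice and, per the methods of the study, from its epicardium. All cells in both groups belonged to a line immortalized with a lentivirus that expresses human telomerase (hTERT) from the CMV promoter, selected with puromycin, and all were at passage 30. The 3 control libraries came from these immortalized CDCs, and the 3 induced libraries from immortalized CDCs given 10 µM 5-azacytidine for 3 days and then kept in medium with 2% serum for 4 weeks, as the labels have it. The methods of the study give another medium and a shorter culture, and the medium and culture time of the sequenced controls are not given in the sources used here, so drug, serum and time in culture cannot be told apart.

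MMPs and ADAMTS proteases are zinc enzymes that are made as inactive proenzymes and become active when their propeptide is displaced or cut off. MMPs degrade collagens, gelatin, laminin and fibronectin, whereas ADAMTS proteases carry thrombospondin repeats that help to direct them to proteoglycans, procollagens and other matrix proteins. ADAMTS-like proteins have the thrombospondin repeats but no protease domain, and several bind fibrillin microfibrils. TIMPs block the active site of these enzymes, and in the heart the balance of proteases and TIMPs is known for its part in scar formation and ventricular remodelling after infarction. 5-Azacytidine is a cytidine analogue that traps DNA methyltransferases and so lowers methylation at CpG sites.

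The 6 libraries held between 19041133 and 19823369 reads assigned to genes. Levels are given as CPM, read counts divided by the size of the library and here corrected by the TMM method, and 3 reads, taken as the floor of detection, corresponded to 0.150 to 0.159 CPM. The fold change is induced over control, and a gene was called when edgeR's quasi-likelihood test gave a Benjamini-Hochberg adjusted p below 0.05 over the 14246 genes tested. The labels describe the RNA as from 3 separate samples per group of a single line, so the p-values measure the spread between these samples, which may be technical. That spread was small, with a biological coefficient of variation of 5.82% over all genes. The CDC markers Eng, Thy1 and Ly6a summed to 503 to 508 CPM in controls and 563 to 595 CPM in induced libraries. Eng held the largest part in each group, with means of 360 and 393 CPM, while Thy1 went from 113 to 164 CPM. The markers did not move together, as Eng (log2 fold change 0.12) and Thy1 (0.54) were called higher and Ly6a (-0.57) was called lower. Of 12 leukocyte markers 7, among them Ptprc, Itgam and Adgre1, had 0 reads in all libraries, and the list summed to between 25.6 and 28.2 CPM in the controls and between 24.8 and 27.0 CPM in the induced libraries, although Lyz2 rose on average from 3.76 to 14.6 CPM and Csf1r fell from 22.6 to 10.9 CPM. The 6 endothelial markers, none of which could be tested, summed to between 0.255 and 0.557 CPM in the controls and between 0.579 and 0.943 CPM in the induced libraries. The 8 cardiomyocyte markers summed to between 1.553 and 1.83 CPM in the controls and between 3.89 and 4.36 CPM in the induced libraries, and only 2 of them could be tested. Myl7, at 0 and 74 pooled reads, was called higher but passed the filter on low counts only through the induced libraries. Tnni3 was not called (log2 fold change 0.41, adjusted p = 0.144, edgeR). The 6 epicardial markers summed to between 404 and 416 CPM in the controls and between 1243 and 1393 CPM in the induced libraries, mostly through Upk3b and Msln, and 4 of them were called higher while Krt19 (log2 fold change -1.24) and Tbx18 (-0.33) were called lower. The part of these shifts in the values below was not tested, and in bulk RNA fewer cells of a type and less RNA per cell cannot be told apart.

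Of the 50 genes, 35 had enough reads to be tested and 31 of these were called, 21 higher and 10 lower in induced cells. That is 88.6% of the tested genes, beside 64.8% called among all genes, where 32.6% were higher and 32.2% lower. Adamtsl2, Mmp25 and Adamts3 passed the filter on low counts only through the group in which they were higher, so these counts are a description. Of the 15 genes not tested, 6 had 0 reads in every library. A change of at least 2-fold was called higher for 6 genes and lower for 4, 10 of 35 in all. Among all genes 17.1% were called so, 9.29% higher and 7.83% lower. For 33 of the 35 genes the groups did not overlap in CPM, as was so for 68.6% of all genes tested, and the exceptions were Mmp10 and Timp4. The median log2 fold change of the 35 genes was 0.34 and the median of its absolute value 0.72, while over all genes tested these were -0.01 and 0.36. The changes ran in both directions within the MMP, ADAMTS and TIMP groups. Of the Mmp genes 15 were tested, with 8 higher, 5 lower and a median log2 fold change of 0.28. All 11 Adamts genes that were tested were called, 7 higher and 4 lower, with a median of 0.29. For the Adamtsl genes 4 were higher, none was lower and 1 was not called. Among the Timp genes 2 were higher, 1 was lower and 1 was not called.

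**Figure D1:**
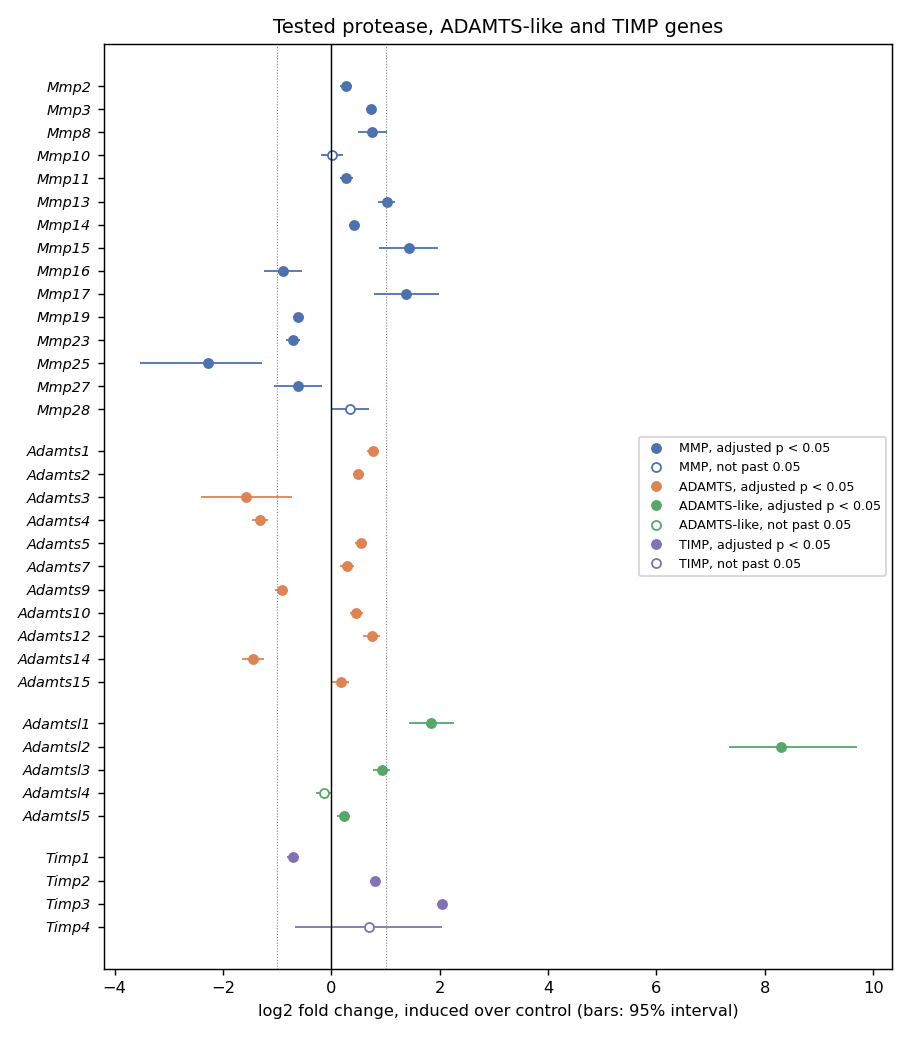
The log2 fold change, induced over control, of the 35 tested genes by group, with filled circles for adjusted p below 0.05, open circles for the others and bars for the 95% interval, which for Adamtsl2 and Mmp25 is the exact interval of the ratio of pooled reads. Adamtsl2 at 8.30 and Timp3 at 2.03 lie farthest to the right, and Mmp25 at -2.28 and Adamts3 at -1.57 farthest to the left.

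Among the MMPs the largest part of the transcripts came from Mmp3, which encodes stromelysin, an enzyme that degrades proteoglycans and laminin and activates other MMP proenzymes. Mmp3 (ENSMUSG00000043613, chromosome 9, 7445822 to 7455975, plus strand, mm10) had 1361, 1296 and 1353 CPM in control libraries 1, 2 and 3 and 2147, 2127 and 2348 CPM in induced libraries 1, 2 and 3. All induced libraries lay above all controls, and the rise was 1.65-fold (log2 fold change 0.72, SE 0.04, adjusted p = 7.78e-11, edgeR). Per length, as the FPKM of the authors, Mmp3 went from 735 ± 20.6 to 1224 ± 68.8 (SD, n = 3) and made up 70.3% ± 0.168 of the summed FPKM of all Mmp genes in controls and 77.8% ± 1.03 in induced cells. Such shares depend on the length used, which for Mmp14, the next gene, was 5960 bases against 2596 in its principal transcript. In CPM, which ignores length, Mmp3 and Mmp14 were closer, at 1337 and 893 in controls and 2208 and 1188 in induced cells. Next came Mmp14 (ENSMUSG00000000957, chromosome 14, 54431612 to 54445364, plus strand), the membrane-anchored MMP that cleaves fibrillar collagen at the cell surface and activates the Mmp2 proenzyme. Its levels were 911, 865 and 903 CPM in the controls and 1217, 1182 and 1165 CPM in the induced libraries. The groups did not overlap, and Mmp14 rose 1.33-fold (log2 fold change 0.41, SE 0.04, adjusted p = 7.27e-08, edgeR). Mmp2, a gelatinase, rose less, from 80.1 ± 2.86 to 97.0 ± 3.16 CPM (log2 fold change 0.28, adjusted p = 0.000186). The other gelatinase, Mmp9, had 4 reads over the 3 control libraries and 7 over the 3 induced libraries and was not tested. Thus Mmp3, Mmp14 and Mmp2 were each higher in induced cells, by less than 2-fold. Mmp10, also a stromelysin, was not called (log2 fold change 0.00, adjusted p = 0.971, edgeR).

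Both collagenase genes that passed the filter rose. Mmp13 (ENSMUSG00000050578, chromosome 9, 7272514 to 7283331, plus strand), the collagenase that cleaves type II collagen most readily, had 23.2, 25.0 and 24.8 CPM in the controls and 43.7, 50.9 and 53.7 CPM in the induced libraries. Every induced library was far above every control, and the fold change was 2.03 (log2 1.02, SE 0.08, adjusted p = 1.09e-09, edgeR). Mmp8, known as the neutrophil collagenase, had 6.64, 5.15 and 6.81 CPM in the controls and 10.1, 10.3 and 11.01 CPM in the induced libraries, again without overlap (log2 fold change 0.76, SE 0.13, adjusted p = 4.67e-05). Of the neutrophil markers, S100a9 and Mpo had 0 reads in all 6 libraries, S100a8 had 2 reads per group, and Elane had 2 in the controls and 4 in the induced libraries. Mmp1b, the remaining collagenase gene in the list, had 0 reads as well. Mmp11, known as stromelysin-3 and activated inside the cell by furin, rose from 57.7 ± 3.71 to 69.8 ± 3.41 CPM (log2 fold change 0.28, adjusted p = 0.000527), with 5.58% of its exon bases lying antisense to Chchd10, whose reads went from 131 to 700.

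The membrane-type MMPs other than Mmp14 were rare and differed in direction. Mmp15, a transmembrane enzyme, had 1.06, 0.764 and 0.902 CPM in the controls and 2.60, 2.47 and 2.31 CPM in the induced libraries. Mmp17, which is held at the surface by a GPI anchor, had 0.608, 0.968 and 1.00 CPM in the controls and 2.07, 2.05 and 2.62 CPM in the induced libraries. For both genes all induced libraries were higher, and the rise was 2.69-fold for Mmp15 (log2 1.43, SE 0.26, adjusted p = 9.95e-05) and 2.60-fold for Mmp17 (log2 1.38, SE 0.28, adjusted p = 0.000340, edgeR). Mmp16, another transmembrane enzyme, fell from 8.56, 9.07 and 7.41 CPM to 4.15, 5.84 and 3.51 CPM (log2 fold change -0.89, SE 0.17, adjusted p = 0.000132). Mmp25, the other GPI-anchored enzyme, fell from 0.659, 0.968 and 0.751 CPM to 0.0531, 0.263 and 0.157 CPM (log2 fold change -2.28, adjusted p = 0.000789). Mmp25 passed the filter on low counts only through the controls, and in pooled reads it had 47 in the controls and 9 in the induced libraries, a ratio of control over induced of 5.01 with an exact 95% interval of 2.43 to 11.6 that covers counting error only. Of the tested enzymes of this class Mmp14 moved by the smallest factor. The larger factors of Mmp15, Mmp17 and Mmp25 rest on few reads, so no relation of level to change was drawn. Of Mmp24, 6 reads were found in the controls and 13 in the induced libraries, too few for a test.

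The fall of Mmp19 and Mmp23 concerned genes of intermediate level. Mmp19, a broadly acting basement membrane enzyme, had 138, 131 and 135 CPM in the controls and 87.3, 90.7 and 87.1 CPM in the induced libraries. Mmp23, an MMP whose haemopexin domain is replaced by other domains, had 119, 126 and 127 CPM in the controls and 81.8, 68.6 and 77.1 CPM in the induced libraries. Neither gene showed any overlap of the groups, and the log2 fold changes were -0.61 (SE 0.05, adjusted p = 5.28e-09) and -0.71 (SE 0.06, adjusted p = 1.15e-08, edgeR). For Mmp19, 28.3% of the exon bases lie antisense to other genes, chiefly Tmem198b, whose reads fell along with it from 1377 to 884, and whether counting used strand is not given in the sources used here. Of the summed Mmp FPKM, Mmp23 held 5.01% in controls and 2.06% in induced cells, and Mmp19 held 3.61% and 1.59%. Mmp28, known as epilysin, was not called, with means of 4.87 ± 1.06 (control) and 6.19 ± 0.327 CPM (induced) (log2 fold change 0.34, adjusted p = 0.0736).

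**Figure D2:**
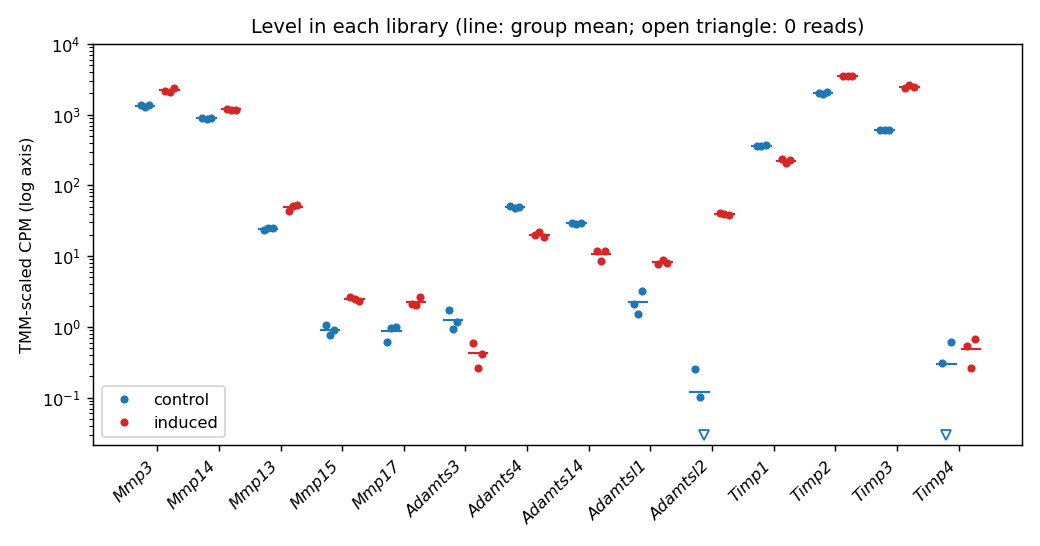
TMM-scaled CPM on a log axis in each of the 3 control (blue) and 3 induced (red) libraries, with the group mean as a line and open triangles for 0 reads. For every gene drawn other than Timp4 the control and induced points do not overlap, and Adamtsl2 shows the widest gap, from 0.118 to 39.2 CPM on average.

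Of the 22 Mmp genes, 9 lie on chromosome 9 between positions 7272514 and 7699585 (mm10), a stretch of 427 kb, in the order Mmp13, Mmp12, Mmp1b, Mmp3, Mmp10, Mmp8, Mmp27, Mmp20 and Mmp7. The stretch holds 13 annotated genes in all, with the pseudogene Mmp1a between Mmp3 and Mmp10. These 9 genes did not move as a block. Mmp13, Mmp3 and Mmp8 rose as given above, whereas Mmp10, a stromelysin that follows Mmp3 in this order, had 20.4, 22.3 and 20.9 CPM in the controls and 19.9, 18.99 and 24.9 CPM in the induced libraries. These values overlapped, and the log2 fold change of Mmp10 was 0.00 with a 95% interval from -0.20 to 0.21 (adjusted p = 0.971, edgeR). Mmp27, which begins within 3 kb of the end of Mmp8, fell from 2.99, 3.01 and 2.65 CPM to 1.75, 2.00 and 1.89 CPM (log2 fold change -0.62, SE 0.21, adjusted p = 0.0163), a call that was lost without control replicate 1 (adjusted p = 0.0523) or control replicate 2 (adjusted p = 0.0510). Mmp12, the macrophage elastase, Mmp1b and Mmp20, the enamel enzyme, had 0 reads in all libraries. Mmp7, known as matrilysin, had 3 reads, all in induced library 1.

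The stretches just before the starts of 5 of these genes are shown because the expressed neighbours differ in them. Each line gives 110 bases that end at the RefSeq start, or before it where the deposited gene begins upstream of that start, on the plus strand of GRCm38.p6, with the AP-1 motif (TGAGTCA, or its reverse complement TGACTCA) and the TATAAA box in capitals.
Mmp13, chr9:7272404-7272513: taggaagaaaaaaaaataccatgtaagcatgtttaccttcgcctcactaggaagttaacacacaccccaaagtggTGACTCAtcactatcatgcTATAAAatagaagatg
Mmp3, chr9:7445712-7445821: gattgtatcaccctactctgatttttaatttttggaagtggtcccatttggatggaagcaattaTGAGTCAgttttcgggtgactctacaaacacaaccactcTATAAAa
Mmp10, chr9:7502232-7502341: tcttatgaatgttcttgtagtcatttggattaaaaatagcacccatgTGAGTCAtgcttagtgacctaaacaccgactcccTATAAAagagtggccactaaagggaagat
Mmp8, chr9:7558319-7558428: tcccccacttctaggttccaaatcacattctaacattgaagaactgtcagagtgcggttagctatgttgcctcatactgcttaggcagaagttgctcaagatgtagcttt
Mmp27, chr9:7571286-7571395: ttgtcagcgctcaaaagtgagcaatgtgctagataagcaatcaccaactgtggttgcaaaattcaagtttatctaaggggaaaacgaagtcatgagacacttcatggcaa
Mmp13, Mmp3 and Mmp10 each hold an AP-1 motif followed by a TATAAA box, and Mmp8 and Mmp27 hold neither in these bases. So both a gene that rose and the gene that was not called have the pair of motifs, and a gene that rose and a gene that fell lack it. In windows of 300 bases, 250 before and 50 after the RefSeq start, the AP-1 motif was found in 6 of 38 windows of the genes described here (15.8%) and in 5.20% of all 32841 RefSeq windows. All 6 belong to genes of the chromosome 9 stretch, namely Mmp13, Mmp12, Mmp1b, Mmp3, Mmp10 and Mmp7. The TATAAA box, searched on the strand of the gene, was in 10 of the 38 windows (26.3%) and in 8.32% of all windows. All windows together cover 27018 gene symbols and, unlike the genes described here, were not limited to protein-coding genes. AP-1 was searched on both strands, the motifs share no bases, and a match describes letters only.

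**Figure D3:**
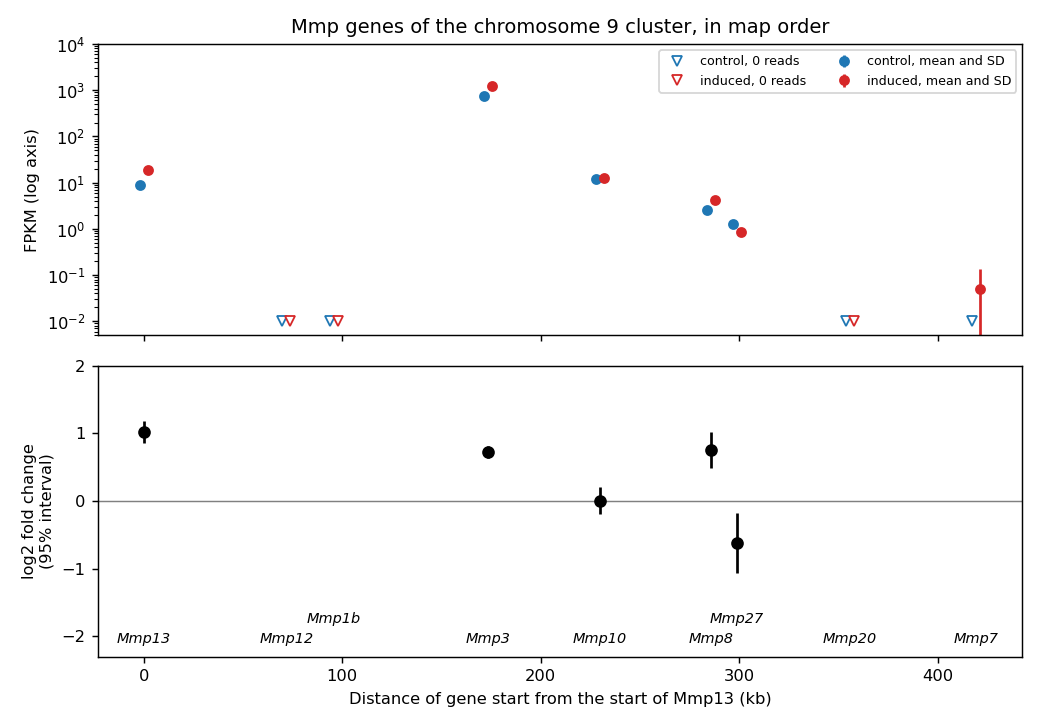
The 9 Mmp genes of the chromosome 9 stretch by distance from the start of Mmp13 in kb, with FPKM on a log axis (mean and SD over 3 libraries per group, open triangles for 0 reads) above and log2 fold change with its 95% interval below. Mmp3 stands far above its neighbours, and the intervals of Mmp13, Mmp3 and Mmp8 lie above 0, that of Mmp27 below 0 and that of Mmp10 across it.

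Among the ADAMTS proteases the proteoglycanases, which cleave versican and aggrecan, split by direction. Adamts1 rose from 128, 120 and 118 CPM to 207, 216 and 198 CPM (log2 fold change 0.76, SE 0.05, adjusted p = 3.66e-10, edgeR). Adamts5, its neighbour on chromosome 16, rose from 112, 109 and 110 CPM to 151, 172 and 160 CPM (log2 fold change 0.55, adjusted p = 6.33e-08). Adamts4 (ENSMUSG00000006403, chromosome 1, 171250421 to 171260637, plus strand) went the other way, with 51.6, 48.6 and 49.1 CPM in the controls and 19.9, 21.6 and 18.6 CPM in the induced libraries. All 3 induced values of Adamts4 lay far below the controls, and the fall was 2.48-fold (log2 fold change -1.31, SE 0.07, adjusted p = 8.63e-12, edgeR). Adamts9 fell as well, from 194, 182 and 173 CPM to 91.0, 103 and 97.3 CPM (log2 fold change -0.92, SE 0.06, adjusted p = 1.03e-10). The last tested member of this class was Adamts15, at 22.4 ± 0.639 CPM in controls and 25.3 ± 1.29 CPM after induction (log2 fold change 0.18, adjusted p = 0.0458), a call that did not hold under most alternatives (adjusted p from 0.0329 to 0.125). Adamts8 and Adamts20 had 2 and 11 reads in all. Thus, of 7 proteoglycanase genes, 5 were tested, 3 were higher and 2 were lower.

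The procollagen N-propeptidases Adamts2, Adamts3 and Adamts14, which trim the amino-terminal propeptides of fibrillar procollagens, were also split. Adamts2, the Adamts gene with the highest FPKM, had 410, 377 and 398 CPM in the controls and 567, 563 and 544 CPM in the induced libraries (log2 fold change 0.50, adjusted p = 1.96e-08, edgeR). Adamts14 (ENSMUSG00000059901, chromosome 10, 61197112 to 61273438, minus strand) had 29.2, 28.3 and 29.7 CPM in the controls and 11.7, 8.63 and 11.6 CPM in the induced libraries. The groups were well apart, and Adamts14 fell 2.73-fold (log2 fold change -1.45, SE 0.10, adjusted p = 3.94e-10). Adamts3 was near 1 CPM, with 1.72, 0.917 and 1.15 CPM in the controls and 0.585, 0.263 and 0.419 CPM in the induced libraries (log2 fold change -1.57, SE 0.40, adjusted p = 0.00201). In FPKM, Adamts2 exceeded Adamts14 and Adamts3 in both groups, with 41.9 ± 1.84, 5.54 ± 0.146 and 0.231 ± 0.0757 in controls and 59.7 ± 1.30, 2.05 ± 0.340 and 0.0777 ± 0.0297 in induced cells (SD, n = 3).

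Both enzymes that cleave cartilage oligomeric matrix protein rose, Adamts7 from 53.0 ± 1.11 to 65.0 ± 5.12 CPM (log2 fold change 0.29, adjusted p = 0.000338, edgeR) and Adamts12 from 30.3 ± 0.701 to 50.7 ± 5.93 CPM (log2 fold change 0.74, adjusted p = 7.74e-08). Adamts12 lies on chromosome 15, whose 561 tested genes had a median log2 fold change of -0.24, against 0.00 for the genes of the other chromosomes. Ly6a, the CDC marker that fell (log2 fold change -0.57), lies there too, and the part of this shift in either gene was not tested. Adamts10, which binds fibrillin, rose from 78.1 ± 4.14 to 107.6 ± 1.96 CPM (log2 fold change 0.46, adjusted p = 5.51e-07). Summed over all Adamts genes, FPKM was 130.4 ± 3.71 in controls and 164 ± 4.57 in induced cells, and the share of Adamts1 went from 17.5% to 23.8% while that of Adamts9 went from 9.24% to 3.93% and that of Adamts4 from 7.86% to 2.54%. Of the genes without a test, Adamts6 had the most reads, with 7, 0 and 2 in the controls and 12, 36 and 8 in the induced libraries, so that a single induced library held most of them. Without the filter on low counts Adamts6 was called higher (log2 fold change 2.65, adjusted p = 5.87e-06, edgeR), and so it was where leaving out any control library or induced library 3 let it pass the filter (log2 fold change from 2.08 to 4.12, adjusted p from 0.000841 to 0.0205). It passed there only through induced libraries, in which it was higher, so these calls are a description. Adamts13, the protease of von Willebrand factor, had 2 reads in each group. Adamts16 and Adamts17 had 5 and 0 reads in the controls and 8 and 5 in the induced libraries, and Adamts18 and Adamts19 had none.

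The ADAMTS-like genes held the widest change of all 50 genes. Adamtsl2 (ENSMUSG00000036040, chromosome 2, 27079379 to 27108981, plus strand), whose product binds fibrillin and a latent TGF-beta binding protein and whose loss causes geleophysic dysplasia, had 5, 2 and 0 reads in control libraries 1, 2 and 3 and 765, 751 and 717 reads in the induced libraries. It was thus at the floor of detection in the controls and at 40.7, 39.5 and 37.6 CPM in every induced library, and it passed the filter on low counts through the induced libraries. The ratio of pooled reads, 2233 over 7 and corrected for depth, was 332.5 with an exact 95% interval of 161 to 828, which covers counting error only (log2 fold change 8.30, adjusted p = 3.97e-16, edgeR). The fitted log2 fold change depended on the few control reads, with 9.43 without control replicate 1 and 7.74 without control replicate 3. Adamtsl1, known as punctin, rose 3.59-fold from 2.08, 1.53 and 3.21 CPM to 7.65, 8.73 and 8.12 CPM (log2 1.84, SE 0.20, adjusted p = 1.84e-07), again with no overlap. Adamtsl3 rose from 28.4, 28.1 and 31.6 CPM to 50.5, 62.0 and 54.9 CPM (log2 fold change 0.93, adjusted p = 3.16e-09). The changes of the other members were small, with Adamtsl5 at 50.03 ± 3.12 and 58.5 ± 1.22 CPM (log2 fold change 0.22, adjusted p = 0.00225) and Adamtsl4 at 30.8 ± 1.53 and 28.0 ± 0.691 CPM (log2 fold change -0.14, 95% interval -0.28 to 0.01, adjusted p = 0.0912). Adamtsl2 held 0.0700% of the summed Adamtsl FPKM in controls and 15.4% in induced cells, while Adamtsl5 held 48.3% and 38.9% and Adamtsl4 33.5% and 20.997%.

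Timp3 showed the largest rise among the inhibitors. Timp3 (ENSMUSG00000020044, chromosome 10, 86300372 to 86349506, plus strand), the inhibitor that is bound to the matrix and also blocks ADAMTS proteases and Adam17, had 605, 607 and 607 CPM in the controls and 2384, 2613 and 2446 CPM in the induced libraries. The induced libraries lay apart from the tightly grouped controls, and the rise was 4.09-fold (log2 2.03, SE 0.04, adjusted p = 3.86e-17, edgeR). Of the Timp3 exon bases, 21.3% lie antisense to Syn3, which itself had only 27 and 78 reads. Timp2 (ENSMUSG00000017466, chromosome 11, 118301069 to 118355740, minus strand), the inhibitor that also takes part in the activation of Mmp2 by Mmp14, had 2052, 1990 and 2071 CPM in the controls and 3537, 3579 and 3504 CPM in the induced libraries. These groups did not overlap either, and Timp2 rose by 0.80 on the log2 scale (SE 0.04, adjusted p = 1.49e-12). Timp1 (ENSMUSG00000001131, chromosome X, 20870166 to 20874735, plus strand), a soluble inhibitor that binds Mmp14 poorly, fell from 362, 361 and 373 CPM to 234, 204 and 232 CPM (log2 fold change -0.71, SE 0.05, adjusted p = 1.26e-09). Timp4 was rare, with 0 reads in control library 2 and at most 13 reads in the others, at 0.304, 0 and 0.601 CPM in the controls and 0.531, 0.263 and 0.681 CPM in the induced libraries. The Timp4 groups overlapped, and the 95% interval of its log2 fold change ran from -0.68 to 2.05 (adjusted p = 0.367).

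The order of the inhibitors thus differed between the groups. In controls Timp2 and Timp1 were the main forms per length, with FPKM of 518 ± 11.9 and 407 ± 8.20 and Timp3 at 73.8 ± 0.215, and in induced cells Timp3 at 304 ± 14.0 stood above Timp1 at 251 ± 19.2, with Timp2 at 907 ± 8.50 (SD, n = 3). As shares of the summed Timp FPKM, Timp2 went from 51.8% to 62.0%, Timp3 from 7.38% to 20.8% and Timp1 from 40.8% to 17.2%. The summed FPKM of the inhibitors was 999 ± 19.3 in controls and 1462 ± 2.37 in induced cells, and that of the Mmp genes was 1045.5 ± 26.9 and 1573 ± 68.0. The ratio of the inhibitor sum to the Mmp sum was therefore 0.956 ± 0.0135 in controls and 0.931 ± 0.0409 in induced cells, a difference smaller than the SD of the induced libraries. The ratio depended on the length by which a gene's reads are divided. The table's length for Timp3 is 8144 bases and that for Mmp14 5960 bases, all exons joined, whereas their principal transcripts have 4722 and 2596 bases. With summed CPM, which ignores length, the ratio was 1.12 ± 0.0142 in controls and 1.63 ± 0.0731 in induced cells, with principal transcripts 0.844 ± 0.0116 and 0.930 ± 0.0368, and without Timp2 0.460 ± 0.00979 and 0.353 ± 0.0115. No direction of the ratio was therefore drawn from these data, and RNA levels do not measure active enzyme.

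**Figure D4:**
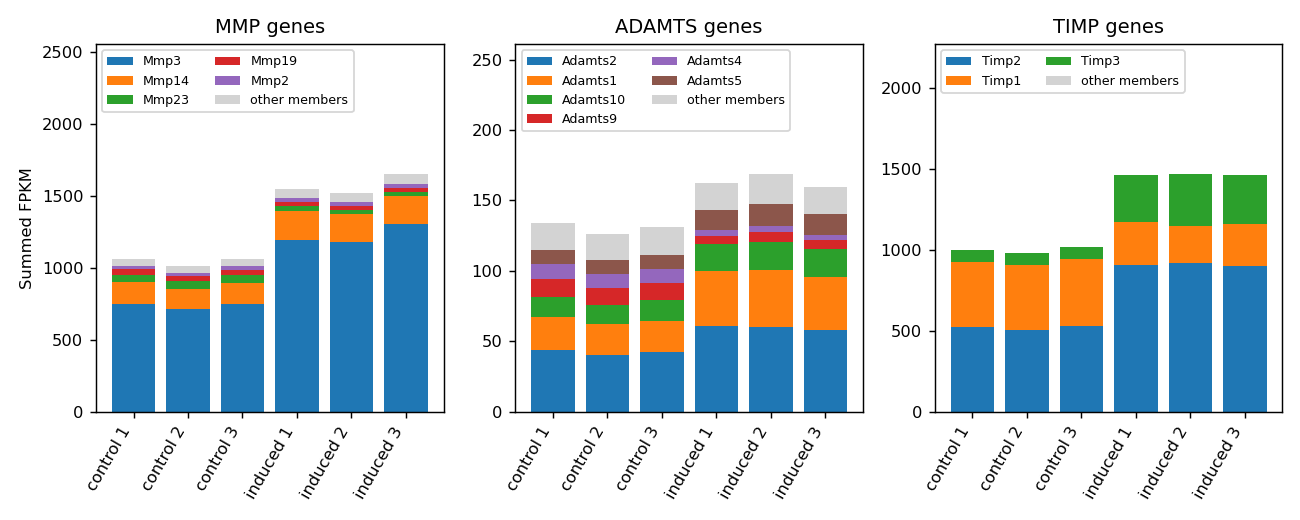
Summed FPKM of the Mmp, Adamts and Timp genes in each library, as bars from 0 divided by gene, with a separate scale for each panel. All 3 sums are higher in the induced libraries, and the Timp bars show a wider Timp3 band and a narrower Timp1 band there.

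Since 5-azacytidine acts on CpG methylation, the CpG content of the promoters was described, with no methylation having been measured. RefSeq promoter windows were matched by symbol for 35 of the 50 genes, 25 of them tested. The stretches before 3 of these genes are shown because they changed at least 2-fold and differ in CpG content, with each CpG in capitals, 5′ to 3′ on the strand of the gene, GRCm38.p6, and bases inside the deposited gene left out.
Adamtsl2, chr2:27079129-27079378, plus strand: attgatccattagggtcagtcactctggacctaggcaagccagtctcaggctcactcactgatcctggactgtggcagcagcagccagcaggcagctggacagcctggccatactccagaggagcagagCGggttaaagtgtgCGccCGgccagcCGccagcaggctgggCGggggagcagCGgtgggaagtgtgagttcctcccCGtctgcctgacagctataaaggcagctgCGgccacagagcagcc
Timp3, chr10:86300162-86300371, plus strand: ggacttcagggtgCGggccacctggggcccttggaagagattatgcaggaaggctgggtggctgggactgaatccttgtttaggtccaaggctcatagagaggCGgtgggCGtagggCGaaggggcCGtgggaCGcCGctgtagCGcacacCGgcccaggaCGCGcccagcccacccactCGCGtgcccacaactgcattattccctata
Adamts14, chr10:61273439-61273669, minus strand: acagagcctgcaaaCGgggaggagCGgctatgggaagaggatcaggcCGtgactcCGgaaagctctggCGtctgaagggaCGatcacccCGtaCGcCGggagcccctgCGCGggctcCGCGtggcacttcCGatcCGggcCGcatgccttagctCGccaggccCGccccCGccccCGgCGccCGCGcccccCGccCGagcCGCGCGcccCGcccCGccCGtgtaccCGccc
These stretches hold 8, 13 and 32 CpG sites in 250, 210 and 231 bases. Over the full windows of 300 bases the ratio of observed to expected CpG was 0.275 for Adamtsl2, 0.714 for Timp3 and 1.01 for Adamts14. The 3 genes were chosen for such differences, so no relation of CpG content to direction was drawn from them. Of other genes with a 2-fold change, Mmp15, which rose, had 0.674 and Mmp25, which fell, had 0.612. Mmp13 and Mmp3 had ratios of 0.0722 and 0.0845, and Adamts3 had 0.915. A ratio of at least 0.6 was found in 18 of 38 windows (47.4%) of the genes described here. Among all windows, which were not limited to protein-coding genes, it was found in 35.8%. By group it was found in 6 of 20 Mmp windows, 7 of 10 Adamts windows, 3 of 4 Adamtsl windows and 2 of 4 Timp windows. Of the windows of genes called higher 6 of 14 reached it, and of those called lower 6 of 8, counts given as a description only. Mmp7, Mmp12 and Mmp23 each have a second window, so windows outnumber genes. Each window of Mmp23, a gene called lower, reached the ratio.

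**Figure D5:**
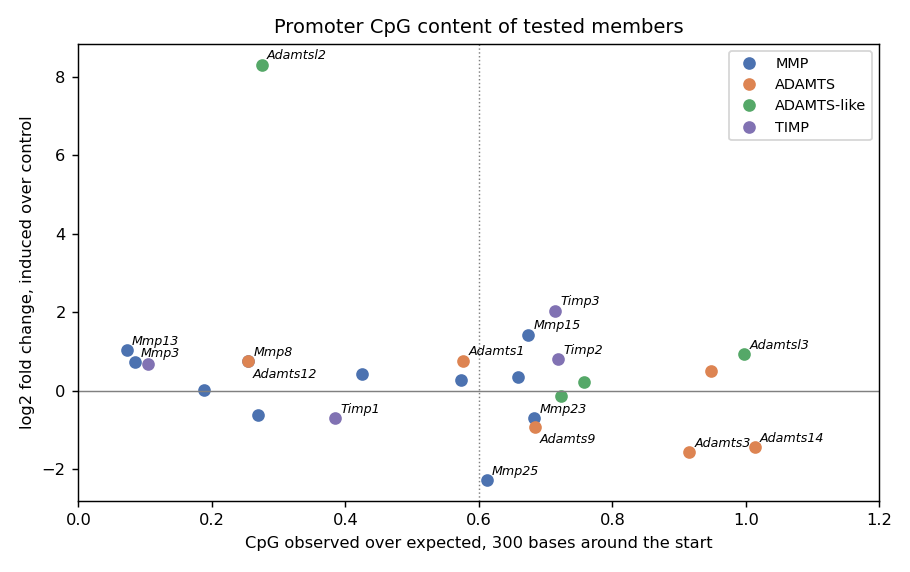
The log2 fold change, induced over control, against the ratio of observed to expected CpG in 300 bases around the RefSeq start, for the tested genes with a matched window, coloured by group, with a dotted line at 0.6. Genes that rose and genes that fell lie on both sides of the line, with Adamtsl2 at a ratio of 0.275 and Adamts14 at 1.01.

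Genes that act beside these proteases were counted in lists, each to be read against the 64.8% called among all genes. The convertases that cut the propeptides of several membrane-type MMPs and ADAMTS proteases gave 2 called of 4, both higher. Pcsk5 rose from 0.371 ± 0.0562 to 21.02 ± 0.878 CPM (log2 fold change 5.80, SE 0.17, adjusted p = 2.06e-15, edgeR), with 22 reads pooled over the controls and 1196 over the induced libraries, and it passed the filter on low counts only through the latter. Pcsk6 rose from 20.02 ± 1.65 to 75.2 ± 3.77 CPM (log2 fold change 1.91, adjusted p = 2.15e-14), while Furin had a log2 fold change of -0.01 (adjusted p = 0.926) and Pcsk7 of -0.04 (adjusted p = 0.595). All 4 tested members of the 7 astacin proteases and procollagen C-proteinase enhancers, which trim the other end of procollagen, were lower. Of these, Tll1, with 176 reads in the controls and 7 in the induced libraries, passed the filter on low counts only through the controls. Pcolce2 fell from 52.6 ± 2.38 to 6.64 ± 0.471 CPM (log2 fold change -2.98, adjusted p = 9.39e-16), Pcolce from 615 ± 8.63 to 364 ± 13.5 CPM (-0.76, adjusted p = 3.68e-11) and Bmp1, the C-proteinase itself, from 423 ± 15.2 to 275 ± 9.41 CPM (-0.62, adjusted p = 1.39e-09). Of 9 hyalectans, link proteins and Comp, substrates of ADAMTS proteases or their partners, 2 were tested and both were lower, with versican (Vcan) at 132 ± 5.17 and 40.5 ± 2.24 CPM (log2 fold change -1.71, adjusted p = 1.80e-14) and Hapln4 at 15.5 ± 0.251 and 11.3 ± 1.17 CPM (-0.46, adjusted p = 0.000508). Aggrecan (Acan) and Comp had 2 and 18 reads in all.

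Of 8 fibrillins, latent TGF-beta binding proteins and related microfibril partners of the ADAMTS-like proteins, 7 were tested, 5 were higher and 1 was lower. Ltbp2 rose from 14.1 ± 1.05 to 201 ± 16.5 CPM (log2 fold change 3.84, adjusted p = 1.22e-17, edgeR), and Thsd4, also an ADAMTS-like protein by its structure, from 4.94 ± 0.689 to 33.6 ± 3.84 CPM (2.76, adjusted p = 2.31e-13). Ltbp1, of the same family as Ltbp2, fell from 86.7 ± 3.68 to 10.3 ± 0.169 CPM (log2 fold change -3.07, adjusted p = 2.73e-17). Among 11 other MMP inhibitors, inducers and clearance receptors, 8 were tested, with 5 higher and 3 lower. Of the lower ones, Tfpi2, with 106 reads in the controls and 18 in the induced libraries, passed the filter on low counts only through the controls. Basigin (Bsg), a membrane protein that induces MMPs in neighbouring cells, showed a log2 fold change of 2.15 (adjusted p = 2.19e-17), while thrombospondin 1 (Thbs1) had -1.51 (adjusted p = 2.06e-15) and Cd44, a docking receptor for MMPs, -1.52 (adjusted p = 4.23e-13). The plasminogen system, whose product plasmin activates MMP proenzymes, had 3 of 8 tested members higher and 3 lower. There Serpinb2 fell by 3.80 on the log2 scale (adjusted p = 3.26e-13) and Plaur, the urokinase receptor, fell by 1.00 (adjusted p = 2.42e-10). All 10 ADAM genes listed were tested, with 3 higher and 4 lower, and by the smallest p these were led by Adam23 at -2.80 (adjusted p = 7.64e-14), Adam19 at -0.85 (adjusted p = 1.20e-10) and Adam22 at 1.10 (adjusted p = 7.69e-09). Adam33, among the higher ones with 14 reads in the controls and 67 in the induced libraries, passed the filter only through the latter. Of the enzymes that add O-linked fucose and glucose to thrombospondin repeats, Pofut2 rose from 191 ± 3.03 to 224 ± 16.2 CPM (log2 fold change 0.23, adjusted p = 0.000906) and B3glct was not called (-0.11, adjusted p = 0.332).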

How the data were processed

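Libraries were made with a NEBNext Ultra kit and sequenced on an Illumina instrument per the labels. Per the submitters' processing notes, HISAT2 2.0.5, featureCounts 1.5.0-p3 and DESeq2 1.16.1 were used with mm10, and the strand setting is not given in the sources used here. The authors deposited a table of raw read counts per gene with FPKM values, whose fold changes and p-values, like the authors' enrichment tables, were not used. Columns were matched to samples by the labels. Counts of all genes were fitted with edgeR 4.0.16 in R 4.3.3 (TMM, filterByExpr with a minimum count of 10 and total of 15, quasi-likelihood test, group only, two-sided, Benjamini-Hochberg over all genes tested), tested beforehand on simulated data. SE is the absolute log2 fold change over the square root of F. Levels between genes were compared in deposited FPKM. Alternatives used DESeq2 1.42.0, limma 3.58.1 on log2(FPKM + 1) or log2(FPKM + 0.1), other scalings and filters, an adjusted p of 0.01, a replicate block and each library left out. At these depths counting limits precision for genes with few reads, also above 1 CPM. The SE was 0.04 for Mmp3, 0.13 for Mmp8 and 0.21 for Mmp27, at means of 1337, 6.20 and 2.88 CPM in controls. Replicates differed by more than sampling noise (chi-square per degree of freedom from 2.56 to 8.91). The genes described and the lists were chosen with earlier results of these data known. Every gene of the 4 groups could be named, those called with at least a 2-fold change and 1 CPM in the higher group, the Timp genes and the 5 with the highest FPKM got every library's value, and of each list the up to 3 members with the smallest p were named, except a result that is not reported here; others were chosen after their values were seen. Promoter sequences are from RefSeq (GRCm38.p6), and coordinates of genes are those of the table.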

Additional observations from a re-analysis of the deposited data

How the results depend on the processing

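Of 522 alternative values for the 35 tested genes, none turned the direction of a called gene, while Mmp10, which was not called, changed sign under some alternatives (log2 fold change down to -0.12). Of these values, 505 kept the side of the threshold, 15 lost the call and 2 gained it. The losses concerned Adamts15 and Mmp27, and the gains were Adamtsl4 under library totals alone (adjusted p = 0.0362, which gives 1 ADAMTS-like gene called lower) and Mmp28 without control replicate 3 (adjusted p = 0.0308). The ratio of summed Timp to Mmp levels, 0.956 in controls and 0.931 in induced cells in FPKM, was 1.12 and 1.63 with summed CPM, 0.460 and 0.353 without Timp2, and 0.844 and 0.930 per length of the principal transcript, an alternative chosen after seeing the data. With each library left out in turn, 12 to 14 Mmp, 10 to 12 Adamts, 4 Adamtsl and 3 Timp genes were called. The Adamts counts include Adamts6, not tested in the main fit, where any control library or induced library 3 was left out. In these runs the ratio in FPKM ranged from 0.951 to 0.964 in controls and from 0.915 to 0.954 in induced cells. With the replicate number as a block, 13 Mmp, 10 Adamts, 4 Adamtsl and 3 Timp genes were called of 9063 genes in all, and among these genes the block changed no call other than that of Adamts15. Libraries of the same number did not deviate together (correlations of -0.00, -0.02 and 0.03), so the numbers were not taken as pairs. All genes called numbered 8593 with DESeq2, 8887 and 8894 with limma and 7783 at an adjusted p of 0.01. Depth limits Timp4 and the genes not tested, and limma with a pseudocount of 1 shrank the log2 fold change of Mmp25 to -0.16.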
